A study of Mus musculus with 24 samples.

Results

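Gabra2, Wdfy1 and Nnt are 3 of the 43430 genes in a count table of mouse cerebellum, chosen by what is known or suspected of them, a level that differs between mouse substrains, and on their level in each library across the genotype groups. The pattern looked for was a stepwise one, with libraries at separate levels and none between. Their levels across the genotype groups are therefore given as a description, with no test. Each library came from the whole cerebellum of 1 mouse, aged about 7 weeks, and the 24 mice formed 4 genotype groups of 3 males and 3 females. In the group cKO a gene that complex I, the entry enzyme of mitochondrial respiration, depends on is deleted in the brain. The Cre control has the recombinase without that loss, the NDI1 control expresses NDI1, a yeast enzyme that oxidises NADH, and cKO+NDI1 combines the deletion with NDI1. The labels name neither the cells in which Cre acts nor the mouse strain, and they do not say which alleles of the deleted gene the controls carry, or which mice were litter mates.

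The 3 genes have unrelated tasks. Gabra2 encodes the alpha2 subunit of the GABA-A receptor, the chloride channel through which GABA inhibits neurons, and it lies in a cluster of GABA-A receptor genes. Wdfy1 encodes a protein with WD repeats and a FYVE domain, which binds a lipid of early endosomes, and it has been described as an adaptor between the receptors TLR3 and TLR4 and the signalling protein TRIF. Nnt encodes nicotinamide nucleotide transhydrogenase, an inner mitochondrial membrane enzyme that uses the proton gradient to make NADPH from NADH. It is best known from the substrain C57BL/6J, whose Nnt gene lacks a run of 5 exons. In C57BL/6J, Gabra2 carries a small deletion in an intron beside a splice acceptor, which is known to lower its RNA. Both are textbook examples of differences between nearly identical mouse lines that reach the level of RNA or protein. Libraries of mice of mixed substrain origin can hold either form, and the sequences of the places concerned in the reference, which is itself made from C57BL/6J, are printed here because reads were assigned to genes by this reference. The coding sequences are those of the transcripts Nnt-202, Gabra2-203 and Wdfy1-204 of GENCODE M21 on the build GRCm38 (mm10), all on the minus strand.

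For Nnt, the sequence spans the join of the sixth exon (chr13:119386579-119386667) and the seventh (chr13:119381676-119381863) of the 17 exons in the reference transcript, with the seventh in capitals. The exons that C57BL/6J lacks would lie between them, so a read of those exons has no place in this model. For Gabra2, it spans the join of the fourth exon (chr5:71034730-71034797) and the fifth (chr5:71014416-71014636), with the fifth in capitals, because the deletion lies just before that exon. For Wdfy1, no such difference is placed here, and the start of the coding sequence (chr1:79761641-79761700) identifies the gene, with the start codon in capitals.
Nnt exon join: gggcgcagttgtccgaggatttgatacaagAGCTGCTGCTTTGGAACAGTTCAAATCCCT
Gabra2 exon join: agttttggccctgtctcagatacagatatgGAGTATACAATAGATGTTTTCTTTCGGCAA
Wdfy1 coding start: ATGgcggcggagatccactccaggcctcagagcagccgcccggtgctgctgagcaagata

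In the deposited table, Gabra2 (ENSMUSG00000000560) spans chr5:70961057-71095849, Wdfy1 (ENSMUSG00000073643) chr1:79702262-79776143 and Nnt (ENSMUSG00000025453) chr13:119335448-119408997. The counts are of whole genes, so the exons of a gene could not be told apart. The table's model of Gabra2 holds 2392 bases and ends short of the GENCODE M21 gene, which reaches down to position 70957597, so reads from the last part of its 3′ end were not in its count. The Wdfy1 model overlaps the first bases of Mrpl44, a gene of the mitochondrial ribosome on the other strand. GENCODE M21 has a second model named Nnt (ENSMUSG00000116207) over nearly the same positions, which was not used here.

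The libraries held 7584374 to 19785264 counts, with 8665396 to 15901824 in cKO, the shallowest group by its mean. Levels are CPM, counts brought to a common library size with TMM factors. All 3 genes passed the filter on low counts that left 15300 genes to test, and their counts per library lay between 95 and 1134. Markers of granule neurons and of Purkinje cells were high in every library (summed 2751 to 3188 CPM and 7393 to 9288 CPM), as the tissue label states. The brain stem markers Hoxa5, Hoxb5 and Hoxb3 stood apart in 4 libraries, Cre control M2, NDI1 control F3, cKO F3 and cKO+NDI1 M3, with 72 to 222 summed counts against at most 20 in the other 20 libraries. The noncoding RNA Gt(ROSA)26Sor, from the locus where NDI1 is known to sit in this line, was at 5.66 to 9.50 CPM in the 12 libraries labelled with NDI1 and at 23.8 to 47.7 CPM in the other 12. Ndufs4, the complex I subunit gene that the study is known to delete, had 67.1 to 133 CPM in cKO and 104 to 164 CPM in Cre control. That is a whole-gene count which includes exons outside a deletion, so it does not check the label.

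Wdfy1 stood at separate levels, and every genotype group except the Cre control held libraries at more than 1 of them. In 16 libraries it lay between 11.7 and 19.3 CPM and in 8 between 39.8 and 75.6 CPM, with none between. Every Cre control library was low, at 11.7, 13.96 and 15.4 CPM in the males and 14.4, 14.4 and 14.9 CPM in the females. In the NDI1 control the males were low, at 12.8, 12.9 and 13.2 CPM, and the females were high, at 41.7, 46.4 and 44.6 CPM. In cKO+NDI1 the females were high as well, at 42.3, 47.2 and 51.8 CPM. Their male M1 was also high, at 39.8 CPM, while the males M2 and M3 were low, at 17.6 and 17.03 CPM. In cKO, 5 libraries were low, with males at 15.8, 18.4 and 15.1 CPM and the females F2 and F3 at 19.3 and 16.7 CPM, and the female F1 had the highest level of all at 75.6 CPM. The high libraries were thus 7 females and 1 male, from every group except the Cre control. All of them but cKO F1 were labelled with NDI1. Whether the levels go with NDI1 was not tested.

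**Figure D1:**
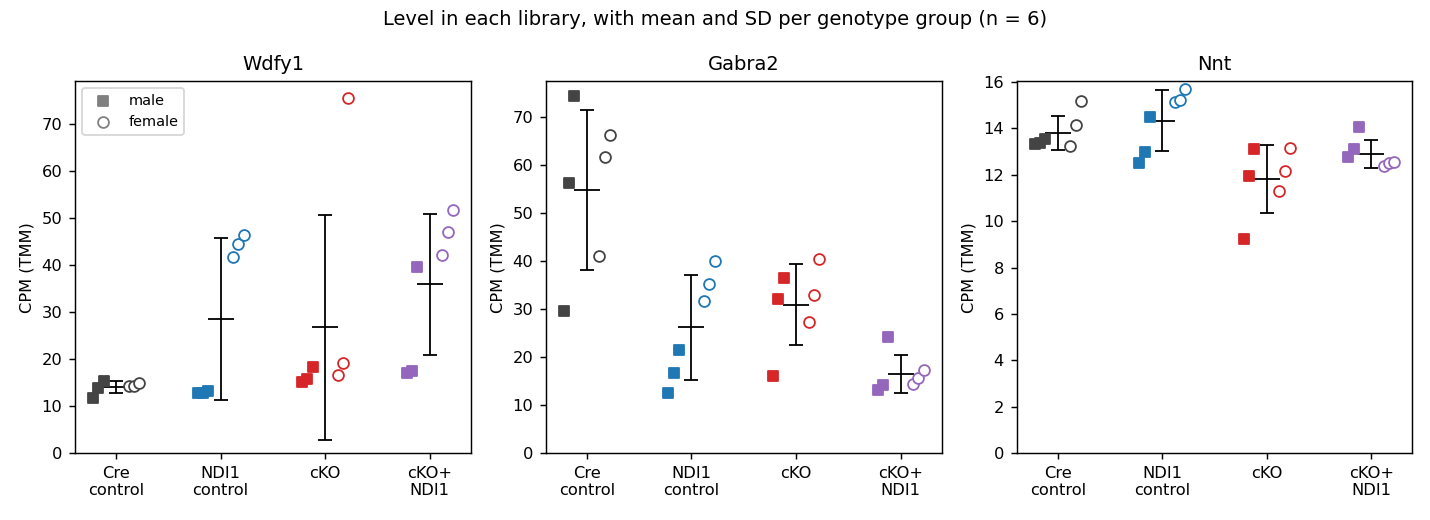
CPM of Wdfy1, Gabra2 and Nnt (y axes, linear from 0) in each library of the 4 genotype groups (x axes); filled squares are males, open circles females, and the horizontal bar with whiskers is the mean ± SD of 6 libraries. Wdfy1 shows 2 tight levels in the NDI1 control, one for each sex, and a single high female at 75.6 CPM in cKO; Nnt lies between 9.21 and 15.7 CPM everywhere.

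The distance between the levels was measured as the largest gap between neighbours when the 24 libraries were sorted by log2 CPM, with at least 2 libraries on each side. For Wdfy1 it was 1.04 on the log2 scale, a 2.05-fold jump from cKO F2 to cKO+NDI1 M1. The exact Poisson 95% intervals of those 2 libraries, which cover counting error only, were 16.8 to 22.1 CPM and 37.1 to 42.6 CPM and did not touch. Within the low libraries no step between neighbours exceeded 0.12, and among the high ones cKO F1 stood 0.54 above cKO+NDI1 F3, with the other steps at most 0.14. A gap of at least 0.3, called a step here, was found in 7.37% of all 15300 genes tested, and in 1.92% of the 9640 genes with a mean level at or above that of Nnt. A gap as large as that of Wdfy1 was found in 14 genes, or 0.0915%. Among genes whose log2 CPM averaged 1 or more, Wdfy1 came eighth, after the X-linked Xist and Slc7a3, 4 genes of the Y chromosome and Gt(ROSA)26Sor. Since Wdfy1 was chosen with these levels in view, its rank is a description.

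**Figure D2:**
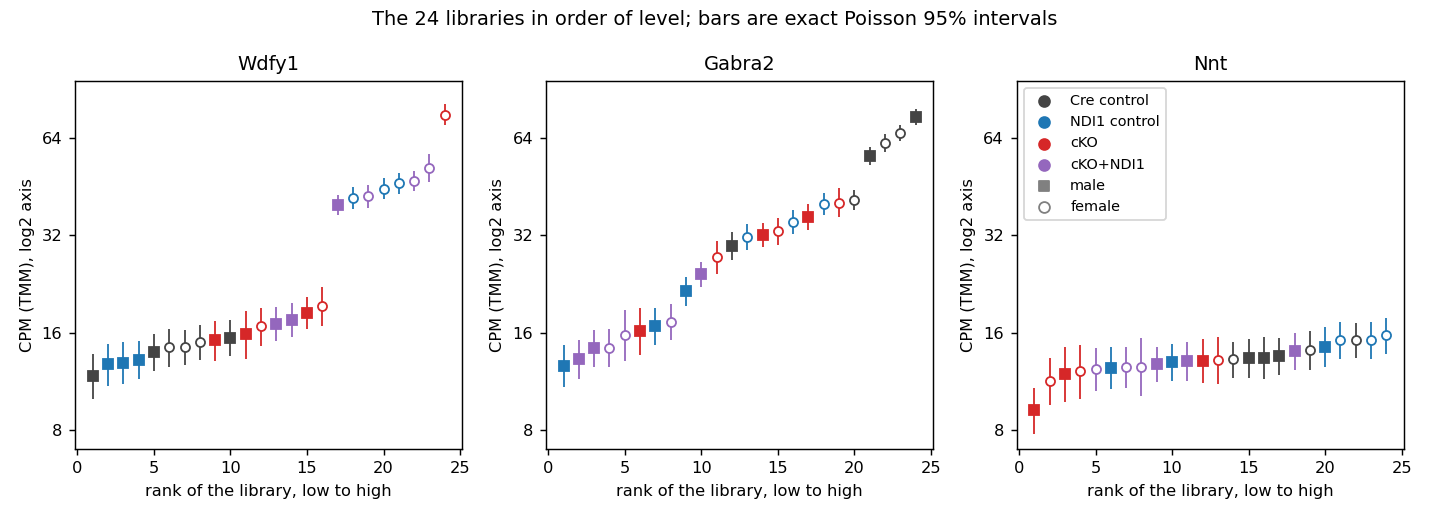
The 24 libraries sorted by their level of each gene (x axes, rank) against CPM on a log2 axis (y axes); colours are genotype groups, squares males, circles females, and bars exact Poisson 95% intervals. Wdfy1 jumps between rank 16 and rank 17, Gabra2 climbs with smaller gaps after rank 8 and rank 20, and Nnt shows no step.

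The group means of Wdfy1 blend these levels. They were 14.2 ± 1.28 CPM in Cre control, 28.6 ± 17.2 in NDI1 control, 26.8 ± 23.9 in cKO and 35.9 ± 15.03 in cKO+NDI1 (SD, n = 6 each). The last 3 of these means lay in the gap between 19.3 and 39.8 CPM, where no library was. The fitted log2 differences were 0.77 ± 0.32 (SE) for cKO against Cre control, 0.79 ± 0.31 for NDI1 control against Cre control, 0.47 ± 0.30 for cKO+NDI1 against cKO and 0.45 ± 0.30 for cKO+NDI1 against NDI1 control. These comparisons share libraries, and in all 4 the libraries of the groups overlapped. In cKO against Cre control, without the female F1 the remaining cKO libraries reached 19.3 CPM, beside at most 15.4 CPM in Cre control. Of the 6 cKO libraries 5, F1 among them, lay above the highest Cre control library. Of the NDI1 control libraries 3 did.

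Sex was not part of the choice of genes, but the levels compared here were. Wdfy1 was lower in males by a log2 of -0.99 ± 0.22 (SE), and its mean was lower in males in 4 of 4 groups. In edgeR's quasi-likelihood test this did not pass the threshold after Benjamini-Hochberg adjustment over all genes (adjusted p = 0.128), a threshold that 13 genes or 0.085% passed in male against female. An exact two-sided permutation of sex within the genotype groups, with 160000 relabelings, gave p = 0.000375 for this single gene. Adjusted over the 3 genes by Benjamini-Hochberg, this permutation p was 0.0011. The permuted values are the levels that the choice of genes used, with stepwise levels in view. Both permutation p values are therefore a description and give no independent support. The permutation takes the mice of a group as exchangeable, while which of them were litter mates is not given. DESeq2 gave the sex difference an adjusted p of 0.0145. Leaving out single libraries in the edgeR fit gave adjusted p up to 0.26, and 21 of 24 fits did not pass. The 3 that passed left out cKO F2, cKO F3 or cKO+NDI1 M1 (0.0439, 0.0391 and 0.0414). The edgeR adjusted p was 0.369 without a filter and 0.179 without the 4 libraries with brain stem markers. The size of the difference varied with the group. Female means were 1.06 times male means in Cre control, 3.41 times in NDI1 control, 2.26 times in cKO, where F1 alone was high, and 1.90 times in cKO+NDI1. Whether the sexes differed by unequal amounts between groups was not tested.

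Gabra2 was spread from 12.6 to 74.4 CPM without the clean separation of Wdfy1, and it was highest in the Cre control. The Cre control males had 29.6, 56.2 and 74.4 CPM and the females 41.1, 61.7 and 66.3 CPM. The NDI1 control males had 16.8, 12.6 and 21.5 CPM and the females 31.6, 35.2 and 40.1 CPM. The cKO males had 16.2, 32.1 and 36.5 CPM and the females 40.4, 27.4 and 33.0 CPM. In cKO+NDI1 the males had 24.3, 13.3 and 14.3 CPM and the females 17.3, 14.3 and 15.7 CPM. The groups in order of their means were Cre control (54.9 ± 16.7 CPM, SD, n = 6), cKO (30.9 ± 8.44), NDI1 control (26.3 ± 10.9) and cKO+NDI1 (16.5 ± 4.04). The second and the third of these differed by less than either SD. All 4 pairs of groups compared overlapped in their libraries: of the 6 cKO libraries 2 lay below the lowest Cre control library, of the NDI1 control 3 did, and of the cKO+NDI1 libraries 4 lay below the lowest of cKO.

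The fitted log2 differences of Gabra2 were -0.83 ± 0.24 (SE) for cKO against Cre control, -1.11 ± 0.24 for NDI1 control against Cre control, -0.88 ± 0.25 for cKO+NDI1 against cKO and -0.60 ± 0.25 for cKO+NDI1 against NDI1 control. Each of these shares libraries with others among them. In bulk RNA, fewer cells that express a gene and less of its RNA per cell cannot be told apart. The summed level of 4 oligodendrocyte markers (Mbp, Mobp, Mog and Mal), all of which passed the filter, was 7186 to 8269 CPM in Cre control, 7354 to 11942 in cKO, 5955 to 7324 in NDI1 control and 5690 to 7037 in cKO+NDI1. Every cKO+NDI1 library thus lay below every Cre control library in this sum. In cKO against Cre control Mal rose (log2 0.42 ± 0.11 SE, edgeR adjusted p = 0.0271). In cKO+NDI1 against cKO Mbp, Mobp and Mal fell (edgeR adjusted p = 0.0194, 0.00728 and 0.0094). Of other cell types, the sum of 6 markers of Bergmann glia and astrocytes was 3940 to 4404 CPM in Cre control, 3882 to 4516 in NDI1 control, 3518 to 3871 in cKO and 3513 to 3946 in cKO+NDI1. In cKO against Cre control 2 of the 6 fell, Slc1a3, a glutamate transporter (log2 -0.28 ± 0.05 SE, edgeR adjusted p = 0.00262), and Fabp7, a fatty acid binding protein (-0.97 ± 0.18, edgeR adjusted p = 0.00211). Of the 6, 1 had a positive difference, Gfap (log2 0.25 ± 0.07 SE, edgeR adjusted p = 0.0536), which did not pass. Slc1a3 was the most abundant of them, with a mean of 1961 CPM over all libraries. The sum of 4 Purkinje cell markers was 8467 to 9288 CPM in Cre control, 8134 to 9042 in NDI1 control, 7513 to 8224 in cKO and 7393 to 8673 in cKO+NDI1, and none of the 4 passed the test in cKO against Cre control. In both of these sums the cKO libraries lay below all Cre control libraries. As single genes, 1.07% of all genes lay lower in cKO without overlap. Such sums weigh the most abundant markers most. Among the Purkinje cell markers the log2 differences were -0.19 for Car8, -0.25 for Itpr1, -0.03 for Calb1 and 0.06 for Pcp2. The part of any of these cells in the levels of Gabra2 or Nnt was not tested.

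The sorted levels of Gabra2 held 2 gaps past 0.3. The larger, 0.45 or 1.37-fold, lay between 41.1 and 56.2 CPM, and the 4 libraries above it were all Cre control, M2 and M3 of the males and F2 and F3 of the females. The Cre control libraries M1 and F1 lay below it, at 29.6 and 41.1 CPM. The smaller gap of 0.31 lay between 17.3 and 21.5 CPM. Below it were 8 libraries, 5 of cKO+NDI1 (M2, M3, F1, F2 and F3), 2 of NDI1 control (M1 and M2) and cKO M1. The other 12 libraries filled the range from 21.5 to 41.1 CPM with no gap over 0.18. A largest gap of at least 0.45 was found in 239 genes, or 1.56%, and an SD over the 24 libraries as large as that of Gabra2 (0.78 on the log2 scale) in 0.458% of genes. Gabra2 thus varied more than nearly all genes, but mostly by degrees.

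**Figure D3:**
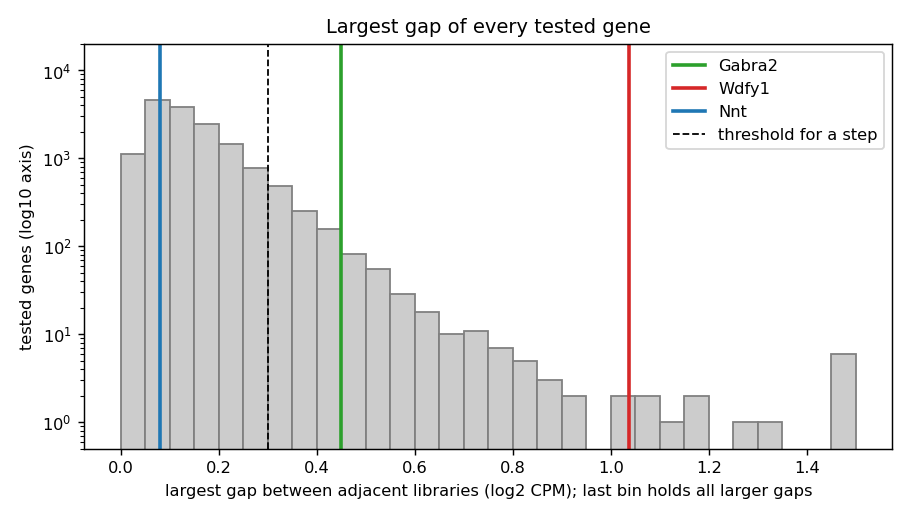
Number of tested genes (y axis, log10) by their largest gap between adjacent libraries in log2 CPM (x axis; the last bin holds all larger gaps), with at least 2 libraries on each side. Vertical lines mark Gabra2 at 0.45, Wdfy1 at 1.04 and Nnt at 0.079, and the dashed line the threshold of 0.3 for a step, which 7.37% of genes passed.

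In the NDI1 control, no male reached the level of any female in Gabra2, in Wdfy1 or in Nnt. Female means were 2.10 times male means for Gabra2 and 1.15 times for Nnt. Among all genes, 13.7% had every NDI1 control male below every female, so for the modest difference of Nnt this is a common pattern in these 6 libraries. In cKO+NDI1 the sexes did not overlap for Wdfy1 and Nnt. Every male was below every female for Wdfy1 (at most 39.8 against at least 42.3 CPM), as in 5.26% of all genes, and every male was above every female for Nnt (means 13.3 and 12.5 CPM), as in 5.32%. Over all groups, Gabra2 was lower in males by a log2 of -0.31 ± 0.17 (edgeR adjusted p = 0.309; exact permutation p = 0.0692), with lower male means in 3 of 4 groups. Neither test passed the threshold of 0.05. In cKO+NDI1 the male mean of Gabra2 was the higher one, through M1 at 24.3 CPM.

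Gabra2 and Wdfy1 did not split the libraries alike. The 8 libraries above the gap of Wdfy1 held Gabra2 levels from 14.3 to 40.4 CPM, and the 16 below it from 12.6 to 74.4 CPM. The Cre control was low in Wdfy1 and held the 4 highest levels of Gabra2, while its M1 and F1 had 29.6 and 41.1 CPM of Gabra2. The cKO+NDI1 females were high in Wdfy1 and low in Gabra2, and NDI1 control males were low in both. Nnt covered 12.2 to 15.7 CPM above the gap of Wdfy1 and 9.21 to 15.2 CPM below it.

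**Figure D4:**
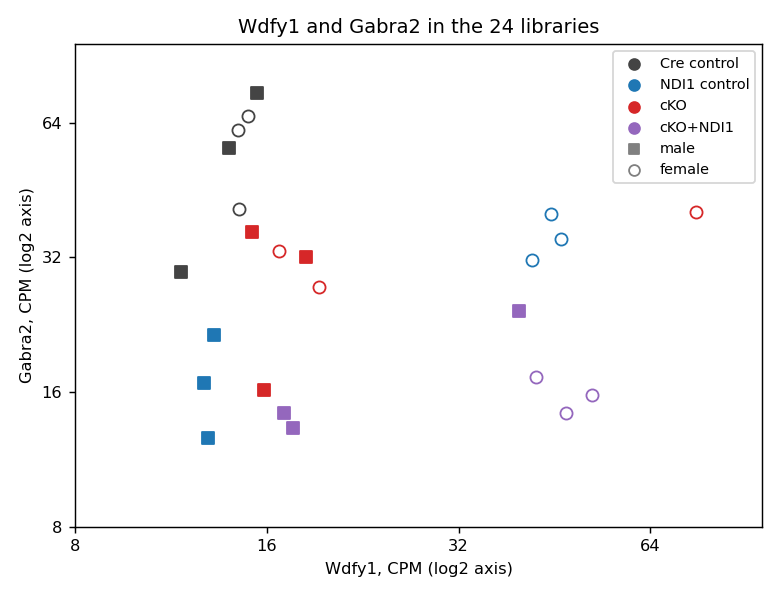
Wdfy1 (x axis) against Gabra2 (y axis), both as CPM on log2 axes, in the 24 libraries; colours are genotype groups, squares males and circles females. The 8 libraries right of the Wdfy1 gap have 14.3 to 40.4 CPM of Gabra2, inside the range of 12.6 to 74.4 CPM of the 16 libraries to its left.

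Nnt showed no stepwise levels, against what was looked for. It lay between 9.21 and 15.7 CPM in all 24 libraries, and its largest gap was 0.079 on the log2 scale, between 11.3 and 11.96 CPM. A gap at least as large was found in 75.3% of genes and an SD at least as large as its 0.16 in 72.9%. The lowest, median and highest libraries were 13.2, 13.5 and 15.2 CPM in Cre control, 12.5, 14.8 and 15.7 in NDI1 control, 9.21, 12.1 and 13.1 in cKO and 12.4, 12.7 and 14.03 in cKO+NDI1. The lone lowest library, cKO M2, stood 0.29 below the next. Counts of Nnt were 95 to 256 per library, and the Poisson intervals of all neighbours in the order overlapped, also those of cKO M2 and the next library.

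Group means of Nnt were 14.3 ± 1.31 CPM in NDI1 control, 13.8 ± 0.749 in Cre control, 12.9 ± 0.611 in cKO+NDI1 and 11.8 ± 1.46 in cKO (SD, n = 6 each), and the means of Cre control and cKO+NDI1 differed by more than either SD while those of the other neighbours in this order did not. Every cKO library lay below every Cre control library, by a margin of 13.1 against 13.2 CPM. Across all genes, 1.07% were lower in cKO without overlap in this way. With library size alone in place of TMM scaling, only 4 of the 6 cKO libraries lay below the lowest Cre control library. The fitted log2 differences were -0.23 ± 0.08 (SE) for cKO against Cre control, 0.05 ± 0.08 for NDI1 control against Cre control, 0.13 ± 0.08 for cKO+NDI1 against cKO and -0.15 ± 0.08 for cKO+NDI1 against NDI1 control. Males and females differed by a log2 of -0.08 ± 0.06 (edgeR adjusted p = 0.404; exact permutation p = 0.145), with lower male means in 3 of 4 groups.

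Other genes known to differ between substrains were looked at in the same way. Ide, an insulin-degrading protease (118 CPM), Fgfbp3, a carrier of fibroblast growth factors (23.01 CPM), and Cyfip2, a regulator of actin (502 CPM), were present in all groups. Their largest gaps were 0.055 to 0.092, and none had a step or passed the test in any comparison. Whole-gene counts do not show a sequence difference that leaves the RNA level unchanged, so these values do not decide on substrain origin. Crb1, Nlrp12 and Mmrn1 reached at most 11, 3 and 5 counts in a library and were not tested. Entpd4 (chr14:69337174-69367270) and Entpd4b (chr14:69555424-69585520), near-identical copies, are listed at 0 in every library.

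Within 5 Mb of the 3 genes, 114 neighbours were tested, 39 around Gabra2, 55 around Wdfy1 and 20 around Nnt. A largest gap of at least 0.3 was found in 5, 8 and 3 of them in that order, beside 7.37% of all genes. A gap at least as large as that of the gene itself was found in 1 neighbour of Gabra2, 0 of Wdfy1 and 17 of Nnt. In cKO against Cre control 8 of them passed edgeR's quasi-likelihood test, a share of 7.02% beside 4.87% of all genes. In NDI1 control against Cre control none did, beside 0.00654% of all genes, which was Gt(ROSA)26Sor alone. None passed in cKO+NDI1 against cKO (0.209% of all genes), in cKO+NDI1 against NDI1 control (0% of all genes, with 686 genes at an unadjusted p under 0.05 and 23 called by DESeq2) or in male against female. At an unadjusted p under 0.05, 15, 12, 4 and 28 neighbours passed in these 4 comparisons in that order, and DESeq2 called 0, 0, 0 and 2 neighbours. These are 13.2, 10.5, 3.51 and 24.6% of the neighbours, beside 9.2, 8.56, 4.48 and 16.9% of all genes.

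Around Wdfy1, 4 of the 55 neighbours tested fell in cKO, beside 277 of all 15300 genes, and none rose. Scg2, which encodes the secretory granule protein secretogranin II and lies 262 kb away, fell from 187 ± 16.9 to 136 ± 9.64 CPM (SD, n = 6; log2 -0.46 ± 0.08 SE, edgeR adjusted p = 0.0015). Sgpp2, a sphingosine phosphate phosphatase, fell by 0.26, Pax3, a transcription factor, by 0.39, and Pid1, an adaptor in insulin signalling, by 0.48 on the log2 scale. The Pearson r of these genes with Wdfy1 over the 24 libraries ran from -0.46 to 0.16. The highest absolute r among all 55 neighbours was 0.559. Mrpl44, which overlaps Wdfy1, had an r of -0.30 with it and a log2 difference of -0.02 between cKO and Cre control (edgeR adjusted p = 0.952). Ap1s3 and Serpine2, on either side, had an r of 0.31 and -0.05, or 0.29 and 0.51 with genotype and sex means removed.

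Around Gabra2, only Tmem33, a membrane protein of the endoplasmic reticulum 3.67 Mb away, passed, and it fell from 172 ± 3.96 to 141 ± 7.71 CPM in cKO (SD, n = 6; log2 -0.28 ± 0.05 SE, edgeR adjusted p = 0.00209). The cluster holds further GABA-A receptor genes. Gabrg1, the nearest at 0.118 Mb, had an r of -0.02 with Gabra2 over the 24 libraries, Gabra4 of -0.32 and Gabrb1 of 0.53. Corin, a protease gene, had the highest absolute r of the 39 neighbours at 0.70, which fell to 0.38 with genotype and sex means removed, below Ociad2 at -0.64 and Gnpda2 at -0.57. With those means removed, the r of Gabrg1, Gabra4 and Gabrb1 was -0.33, -0.40 and 0.41. The log2 differences of Gabrg1, Gabra4, Gabrb1 and Corin between cKO and Cre control were -0.08, -0.15, -0.38 and -0.27, none of which passed.

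Around Nnt, 3 of the 20 neighbours tested rose in cKO, beside 468 of all 15300 genes, and none fell. They were 4833420G17Rik, 53.8 kb away, from 25.6 ± 2.51 to 32.1 ± 4.56 CPM (SD, n = 6; log2 0.33 ± 0.09 SE, edgeR adjusted p = 0.0259), Gm9752 by 0.96 and Parp8, an ADP-ribosyltransferase, by 0.34 on the log2 scale. Gm9752 lies on the other strand inside 4833420G17Rik, so with counting whose use of strand is not given the reads of these 2 cannot be told apart. Their r with Nnt was -0.63, -0.44 and -0.44, values that their rise in cKO, where Nnt is lowest, enters. With genotype and sex means removed it was -0.53, 0.07 and 0.02. Ndufs4 itself lies 4.95 Mb from Nnt and had an r of 0.24 with it, or -0.25 with genotype and sex means removed.

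**Figure D5:**
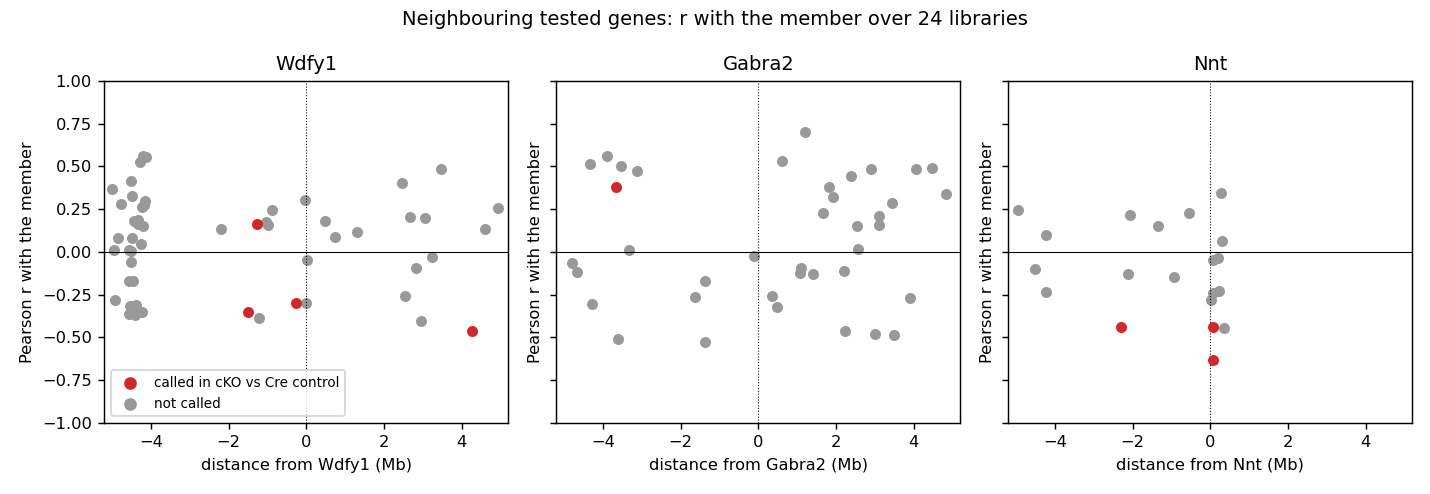
Pearson r with Wdfy1, Gabra2 or Nnt over 24 libraries (y axes) of each tested gene within 5 Mb, by its distance in Mb (x axes); red points passed the test in cKO against Cre control. The highest absolute r is 0.70, that of Corin with Gabra2.

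Several of these 8 calls were lost with fewer libraries, while their sizes stayed close. Without the 4 libraries with brain stem markers, 3 neighbours passed, of which Scg2 and Tmem33 were among the 8 (edgeR adjusted p = 0.0119 and 0.0108). The log2 differences without them were 0.33 for Parp8, 0.93 for Gm9752, -0.38 for Pax3, 0.35 for 4833420G17Rik, -0.22 for Sgpp2 and -0.45 for Pid1. Leaving out single libraries ended the call of Parp8 in 11 of 24 fits, of Sgpp2 in 9, of 4833420G17Rik in 5, of Gm9752 in 4 and of Pid1 in 2, with adjusted p up to 0.102.

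No gene within 5 Mb was among those most like Gabra2, although Gjc3 and Rcc1l, named next, lie farther along its chromosome. Over the log2 CPM of 24 libraries, which differ in depth and tissue makeup, the 5 with the highest absolute Pearson r among 13198 genes were Leprotl1 (0.89), Polg, the mitochondrial DNA polymerase (-0.84), Gjc3, a connexin of oligodendrocytes (0.83), Matk, a tyrosine kinase (-0.83), and Zgpat (-0.82). With genotype and sex means removed, Leprotl1 still came first (0.80), followed by Sox12 (0.79) and Rcc1l (-0.78). For Wdfy1 the closest were Hpgd, which breaks down prostaglandins (-0.80), Evi2a (-0.77), Brd2 (0.74), Amigo1 (0.72) and Lipe, hormone-sensitive lipase (0.71), and none lay on its chromosome. The libraries of Wdfy1 form separate levels, and how much of these values comes from the distance between the levels was not tested. After removal of genotype and sex means the closest were Lix1l (0.79), Zfp764 (-0.75) and Pigu (-0.75). For Nnt they were Pitpnb (-0.80), Slc25a27 (-0.76), Cdh4 (0.75), March7 (-0.75) and Pgghg (0.74), and after removal of the means Slc4a2 (0.73), Bzw1 (-0.73) and Eapp (-0.72).

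Genes of the pathways around the 3 genes were read beside the shares of all genes that passed, 4.87% in cKO against Cre control and at most 0.209% in the other comparisons. With lists this short, few calls or none is what these shares give, so the counts say little of the lists. Of 18 further GABA-A receptor subunit genes 13 were tested, and none passed edgeR's test in any of the 5 comparisons. At an unadjusted p under 0.05, 4 did so in cKO against Cre control, and DESeq2 called the same number there, among them Gabrb1 and Gabrg3, with edgeR log2 differences of -0.38 and -0.67. Among all genes, 18.5% had an unadjusted p under 0.05 in that comparison and DESeq2 called 7.58%. In cKO against Cre control 2 of the 13 had a positive difference, and the median was -0.13 on the log2 scale beside -0.01 over all genes. The most abundant was Gabra6, the subunit of granule neurons (1012 CPM, log2 -0.09 ± 0.08 SE, edgeR adjusted p = 0.641). Per kilobase of gene model, Gabra2 averaged 13.4 CPM, near Gabra4 at 15.4 and far below Gabra6 at 157. In NDI1 control against Cre control, where Gabra2 differed by -1.11, the median of the 13 was -0.04. None of the 6 synapse partners of the receptor passed, among them Gphn, which encodes its scaffold gephyrin (108 CPM), and Clptm1 (197 CPM).

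Of 16 genes that make NADPH in mitochondria or use it to remove peroxide, all tested, only Glud1, glutamate dehydrogenase, passed. It fell in cKO from 402 ± 19.2 to 355 ± 7.82 CPM (SD, n = 6; log2 -0.18 ± 0.05 SE, edgeR adjusted p = 0.0224), while the other 15 did not pass, and the median of the list was -0.06. In NDI1 control against Cre control edgeR called none, with 2 at an unadjusted p under 0.05, and DESeq2 called 2, Mthfd2 and Aldh1l2. Without the 4 libraries with brain stem markers Glud1 had an adjusted p of 0.0792. Idh2 and Me3, which also make mitochondrial NADPH, had log2 differences of 0.23 ± 0.10 and 0.22 ± 0.08 (edgeR adjusted p = 0.186 and 0.0977), and Prdx5 and Gpx4, which remove peroxides, -0.06 ± 0.15 and 0.05 ± 0.19. None of 6 genes of cytosolic NADPH passed in any comparison, with Aldh1l1 and Me1 the most abundant (85.0 and 70.0 CPM). None of 14 genes of FYVE proteins, early endosomes and the signalling of TLR3 and TLR4 through TRIF passed either, although DESeq2 called 1 in cKO against Cre control, Pik3c3, a lipid kinase (edgeR log2 -0.25 ± 0.08 SE, adjusted p = 0.0903). In that list, the most abundant were Wdfy3 (145 CPM), a relative of Wdfy1, and Zfyve9 (121 CPM), Tlr3 averaged 12.7 CPM and Ticam1, which encodes TRIF, 6.29 CPM, and the median differences were -0.04 in cKO and -0.07 in NDI1 control against Cre control, where Wdfy1 differed by 0.77 and 0.79.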

How the data were processed

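Whole cerebellum of 24 mice was sequenced after selection of polyA RNA, per the labels' protocols. The submitters' processing notes name bcl2fastq, Trimmomatic, STAR and HTSeq with mm10, versions not given. The authors deposited whole-number read counts for each gene, not normalized, and 0 columns of other libraries; the use of strand in counting is not given in the sources used here. The gene list and the lists of pathway, substrain and marker genes were chosen with earlier results of these data known. Symbols were found for 42546 of 43430 genes in GENCODE M21.

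Counts were scaled with TMM, filtered with filterByExpr by genotype group to 15300 genes and tested with edgeR's quasi-likelihood F test in 1 model of 24 libraries, with terms for genotype group and sex. Versions were edgeR 4.0.16, R 4.3.3 and limma 3.58.1. The Benjamini-Hochberg adjustment ran over all genes of a comparison, and the threshold was 0.05. Log2 CPM used a prior count of 2. Levels rest on 95 to 1134 counts per library, and intervals are exact Poisson intervals at 95%, for counting error only. The scripts were tested on simulated counts. Genes named are the 3 chosen genes, the 5 most alike in r and the 3 most alike without group and sex means, neighbours within 5 Mb that passed, up to 6 listed genes that passed and 2 others of each list with the highest level, the substrain list, Ndufs4 and Gt(ROSA)26Sor; the remaining named neighbours, receptor genes and low-count genes were named after their values were seen. Some genes that this rule or the marker lists would name are not reported here. Each library is 1 mouse. Labels give no batch. Alternatives were RLE factors, library size alone, no filter, DESeq2 1.42.0, other windows and prior counts, the replicate label as a block, leaving out each library, and, chosen after seeing the data, leaving out 4 libraries with brain stem markers.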

Additional observations from a re-analysis of the deposited data

Results flagged for a closer look

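In the 12 sets of 6 libraries formed by 3 genes and 4 genotype groups, 2 held a library far from the other 5. The genes were chosen on these very levels, so this is a description and no test. Wdfy1 in the cKO female F1 was at 75.6 CPM, with the next cKO library at 19.3 CPM, and this distance was 0.931 of the range of the group. Gabra2 in the cKO+NDI1 male M1 was at 24.3 CPM, with the next at 17.3 CPM, a distance of 0.637 of the range. The same male is the only one above the gap of Wdfy1.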

How the results depend on the processing

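Of 934 values recomputed under an alternative, 834 kept their direction and their side of the threshold, or stayed within 1.5 times a count or 1 SD of a level, and 0 reversed. All group means and largest gaps of Gabra2, Wdfy1 and Nnt were among those kept: leaving out single libraries gave gaps of 1.04 to 1.11 for Wdfy1, 0.42 to 0.58 for Gabra2 and 0.069 to 0.096 for Nnt. The log2 sex difference of Wdfy1 ranged from -1.12 to -0.78 without single libraries and was -0.997 in DESeq2, which called it. The number of genes called moved more. In cKO against Cre control (745 genes) it was 425 without a filter, 1159 in DESeq2 and 301 without the 4 libraries with brain stem markers, a fit on fewer libraries. In NDI1 control against Cre control (1) it was 2 with the replicate block, 69 in DESeq2 and 1 to 37 without single libraries, with the most without NDI1 control M3 and 31 without Cre control M1. In cKO+NDI1 against cKO (32) it was 21 without a filter, 20 with the replicate block, 110 in DESeq2, 17 without the 4 libraries and 10 to 42 without single ones. In cKO+NDI1 against NDI1 control (0) it was 2 without a filter, 23 in DESeq2 and 0 to 3 without single libraries. In male against female (13) it was 38 in DESeq2, 8 without the 4 libraries and 10 to 33 without single ones. Neighbours called in cKO against Cre control (8) were 4 without a filter, 5 within 2 Mb, 3 without the 4 libraries and 4 to 10 without single ones (4 without Cre control F1 or F2, 5 without cKO F1). Within 10 Mb, 1 neighbour was called in cKO+NDI1 against cKO, and DESeq2 called 2 in male against female. Listed genes called in cKO against Cre control (1) were 0 without a filter and 0 without the 4 libraries, 3 with the replicate block, 6 in DESeq2 and 1 to 3 without single libraries; in NDI1 control against Cre control (0) they were 2 in DESeq2 and 0 to 1 without single libraries. Replicate labels did not pair the libraries in every case: correlations of deviations between libraries of the same label ran from -0.40 to 0.51, were over 0.1 in all 6 pairs of M3 and in 5 of 6 of M1, and in at most 3 of 6 pairs of the other labels. With these labels as a block 754 genes were called in cKO against Cre control. The causes were not tested. Depth limits Nnt most, whose 95 counts in the shallowest library leave an interval of 10.2 to 15.4 CPM.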

Other observations

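Among genes whose log2 CPM averaged 1 or more, some of those with the 15 largest gaps are named here after their values were seen. Fmo2 had a gap of 0.89 with 22 libraries below it, Npas4, an activity-induced transcription factor, 0.82 with 2 below, S100a9, of myeloid cells, 0.80 with 20 below, Zbtb16 0.80 with 20 below and Slc15a2, a peptide transporter, 0.76 with 20 below. Wdfy1, with 16 below and 8 above, was the most evenly split autosomal gene among the 15 largest gaps other than Gt(ROSA)26Sor. It was chosen with these levels in view, so its place is a description and no test.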
